A study of Mus musculus with 2 samples.

Results

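The genes described here are 45 mouse genes of ER stress and protein folding, chosen by their known function, in 3 classes: 23 genes of the unfolded protein response of the endoplasmic reticulum (ER), 7 genes comprising the transcription factor ATF4 with its stress targets, and 15 genes of the heat shock and chaperone system of the cytosol and mitochondria. Of these, 44 had a probe among the 19504 genes named on the array, and 43 were bright enough to be tested among 13505 tested genes. Hspa1b, a near-identical copy of Hspa1a, had no probe of its own name, and whether the probes of Hspa1a also bind it was not tested. Derl3 was well above background in 1 of its 4 channels and was not tested. All 43 tested genes were well above background in each of the 4 channels, and none was saturated.

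RNA was from fetal thymic stromal cells of C57BL/6 mice, from lobes that had been kept as organ cultures with 1.35 mM deoxyguanosine, which removes dividing lymphoid cells, and then dispersed with enzyme. The dispersed cells were grown for 72 h either on flat dishes (2D culture) or as a reaggregate on a membrane (reaggregation thymus organ culture, RTOC), and both cultures received cells with the same deoxyguanosine treatment. An array of E14.5 cells followed 8 days of organ culture and an array of E15.5 cells followed 9 days. Each array held RTOC in Cy5 and 2D culture in Cy3, with no dye swap, and both arrays lay on 1 slide, so that dye and culture cannot be told apart, nor can stage, days of organ culture and array. No source used here describes the arrays as separate cultures beyond the stage. The p-values rest on the spread between these 2 arrays and on variance that limma borrows across all tested probes. No further replicates enter them. A log2 ratio below 0 means less signal in RTOC than in 2D culture.

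The cells were not sorted, and in such bulk RNA fewer cells of a type and less RNA per cell cannot be told apart. Markers of thymic epithelium were measured and did not all move alike. Foxn1, its master transcription factor, rose 6.30-fold in RTOC (log2 ratio 2.66 ± 0.03, SD, n = 2 arrays, adjusted p = 0.00254, limma). Cdh1, from the same list, fell 2.44-fold (log2 ratio -1.28 ± 0.38, SD, n = 2 arrays, adjusted p = 0.0229, limma). Over all tested genes 15.498% rose and 12.8% fell at an adjusted p under 0.05 (limma). Of the 8 epithelial markers 4 rose and 1 fell, of 6 mesenchymal markers 3 rose and 2 fell, and of 5 endothelial markers 4 rose and 0 fell. Of 4 smooth muscle markers 0 rose and 3 fell. Blood cell markers were few and rose where they passed, with 2 of 5 T lineage markers, 2 of 5 of macrophages and dendritic cells and 1 of 2 of the B lineage. The part of these shifts in the results below was not tested.

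Unfolded proteins in the ER are sensed by 3 membrane proteins. IRE1, encoded by Ern1, splices the mRNA of the transcription factor XBP1, PERK, encoded by Eif2ak3, phosphorylates the translation factor eIF2α, and ATF6 is cut in the Golgi to release a transcription factor. Phosphorylated eIF2α lowers protein synthesis in general but favours translation of ATF4, and other kinases that sense amino acid shortage or haem deficiency lead to ATF4 by the same step, so ATF4 targets report a wider stress response than that of the ER. Unfolded proteins of the cytosol act instead through HSF1, which binds heat shock elements in the promoters of chaperone genes. Thymic stromal cells are secretory and matrix-producing cells, which depend on ER folding enzymes.

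Each class has a DNA element by which many of its genes are known to be controlled. In RefSeq promoters of the assembly GRCm38.p6, from 250 bases before to 50 after the start site, 36 of the 45 genes had an entry. Both strands were searched for the ER stress response element (ERSE, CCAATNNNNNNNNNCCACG, to which ATF6 binds with NF-Y), the composite element of ATF4 (TGATGNAA), the heat shock element (HSE, GAANNTTCNNGAA) and the XBP1 element (UPRE, TGACGTGG). An ERSE was present in 7 of 19 unfolded protein response genes (36.8%) and in 0.137% of all 27025 genes with a promoter. The composite element was present in 3 of 7 ATF4 genes (42.9%), Asns, Chac1 and Trib3, and in 4.51% of all genes, and an HSE in 3 of 10 heat shock genes (30.0%), Hspd1, Hspe1 and Hsph1, and in 0.662% of all. The UPRE letters were in no promoter of these genes and in 0.714% of all. No gene of the 36 searched held matches to more than 1 of these motifs. A match is a description of letters, not evidence that a site is used.

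The ATF4 matches are shown because they occur in genes that fell and in one, Herpud1, that did not. Those that lie before the start site are printed with the bases around them, read along the gene. Capitals mark the ATF4 composite element, which in Chac1 and Herpud1 reads on the opposite strand. The stretch of Asns is chr6:7693210-7693247 (minus strand), that of Chac1 chr2:119351034-119351071 (plus strand) and that of Herpud1 chr8:94386302-94386339 (plus strand).
Asns: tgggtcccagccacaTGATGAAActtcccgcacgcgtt
Chac1: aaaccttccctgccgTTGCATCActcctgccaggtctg
Herpud1: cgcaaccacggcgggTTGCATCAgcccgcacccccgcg

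Of the genes with an ERSE, Hspa5, Pdia6, Dnajc3 and Syvn1 are printed because they span chaperones, an isomerase and a degradation ligase, with the element in capitals. The stretch of Hspa5 is chr2:34772010-34772058, that of Pdia6 chr12:17266476-17266524, that of Dnajc3 chr14:118937812-118937860 and that of Syvn1 chr19:6046517-6046565, all on the plus strand.
Hspa5: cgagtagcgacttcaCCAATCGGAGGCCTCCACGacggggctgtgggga
Pdia6: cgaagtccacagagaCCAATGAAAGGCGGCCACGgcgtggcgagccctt
Dnajc3: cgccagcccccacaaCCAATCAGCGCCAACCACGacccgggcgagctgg
Syvn1: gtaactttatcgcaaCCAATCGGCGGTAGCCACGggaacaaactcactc

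Hspe1 and Hspd1, which encode the mitochondrial co-chaperonin HSP10 and chaperonin HSP60, lie head to head on chromosome 1, and the same bases, chr1:55088044-55088091, hold the HSE of both. The stretch is printed along Hspe1 (plus strand), and the capitals join 2 overlapping matches, one on each strand.
Hspe1: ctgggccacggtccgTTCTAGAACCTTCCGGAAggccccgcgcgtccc

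In the class of ATF4 and its targets the signal of each gene was lower in RTOC, by the brightest probe. Of the 7 genes, 6 fell and 0 rose at an adjusted p under 0.05 (limma over all tested probes), where 12.8% of all tested genes fell, 15.498% rose and 28.2% did either. By the brightest probe all 7 were lower on both arrays, as were 39.5% of all tested genes, while 40.1% of all were higher on both. For Sesn2 the direction depended on the probe, as given below. The class had a median log2 ratio of -1.49, with -1.64 at E14.5 and -1.37 at E15.5, beside 0.00 over all tested genes. At least 2-fold lower on both arrays were 5 of the 7 genes and 9.04% of all tested genes, and at least 2-fold higher were 0 of the 7 and 11.5% of all. With normexp and median centring, a setting that moved the median of all genes to 0.14, the class median was -1.14 and 2 of the genes passed. None of the 7 passed without a filter on dim probes, where limma called 0 genes in all and 5641 at an unadjusted p under 0.05.

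Ppp1r15a encodes GADD34, the phosphatase subunit that reverses eIF2α phosphorylation. Its quantile-normalized signal was 2771 in 2D culture and 530 in RTOC at E14.5, and 1390 and 376 at E15.5. Both RTOC signals were below both 2D signals. How many of all tested genes show no overlap was not counted. This and the like statements below are therefore descriptions only. The mean log2 ratio of -2.14 ± 0.35 (SD, n = 2 arrays, SE 0.27, adjusted p = 0.00510) was a 4.39-fold lower signal in RTOC, which became -1.39 after normexp background correction and loess. Chac1 encodes a glutathione-degrading enzyme. Its signal was 5075 in 2D culture and 1044 in RTOC for E14.5 cells, and 5830 and 1835 for E15.5 cells. The 2D signals of Chac1 differed little between arrays and lay well above both RTOC signals, and the ratio averaged -1.97 ± 0.43 (SD, n = 2 arrays, SE 0.28, adjusted p = 0.00710). Trib3 encodes a pseudokinase that holds back ATF4 and AKT signalling. Its signal was 2111 in 2D culture and 477 in RTOC at E14.5, and 4953 and 1809 at E15.5. The RTOC signals did not overlap the 2D signals, although the E15.5 RTOC signal came close to the E14.5 2D signal. The ratio within arrays was -1.80 ± 0.49 (SD, n = 2 arrays, SE 0.29, adjusted p = 0.0102), and the other probe of Trib3 gave -1.48 (adjusted p = 0.0121), or -0.79 after normexp and loess.

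Asns, the asparagine synthetase that is a classical target of amino acid shortage, had a signal of 33655 in 2D culture and 11034 in RTOC at E14.5, and of 37398 and 14433 at E15.5. Its arrays were the closest of the class, with log2 ratios of -1.61 and -1.37 (mean -1.49 ± 0.17, SD, n = 2 arrays, SE 0.25, adjusted p = 0.0122). Atf4 itself had a signal of 11710 in 2D culture and 3745 in RTOC at E14.5, and of 9144 and 4081 at E15.5. Its mRNA was therefore 2.65-fold lower in RTOC without overlap of the cultures (-1.40 ± 0.34, SD, n = 2 arrays, SE 0.27, adjusted p = 0.0172). The array measures the mRNA, whereas the control of ATF4 described above acts mainly on its translation. Ddit3 encodes CHOP, a transcription factor of prolonged stress. Its signal was 2490 in 2D culture and 975 in RTOC at E14.5, and 1963 and 1182 at E15.5. Ddit3 fell by 1.04 on the log2 scale (SD 0.44, n = 2 arrays, SE 0.28, adjusted p = 0.0441), a call that was lost with normexp and loess, where the ratio was -0.74.

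Sesn2, which encodes the leucine-sensing inhibitor of mTORC1 sestrin 2, was the member of the class that did not pass. Its brightest probe, named through its symbol, gave -1.45 at E14.5 and -0.64 at E15.5 (mean -1.04 ± 0.57, SD, n = 2 arrays, adjusted p = 0.0531). The other probe, named through a RefSeq accession, gave 0.61 and 0.77 (mean 0.69 ± 0.12, SD, n = 2 arrays, adjusted p = 0.0938). The direction of Sesn2 therefore depended on the probe, and no direction is given for it.

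**Figure D1:**
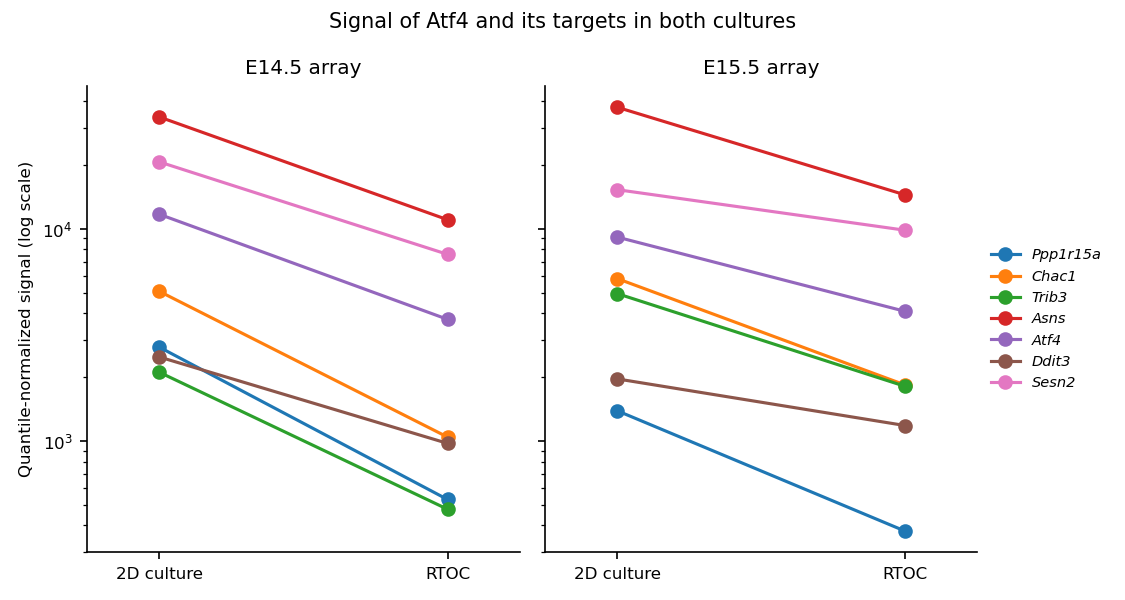
Quantile-normalized signal (log axis) of Atf4 and 6 targets in 2D culture and in RTOC, with a panel for each array and a line for each gene's brightest probe. Each of the 7 lines falls from 2D culture to RTOC on both arrays, with a log2 ratio at E14.5 of -2.39 for Ppp1r15a and of -1.35 for Ddit3.

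A wider list of 25 ATF4-linked genes outside the 45, all of them tested, was read in the same way. This list and the wider ER and chaperone lists below were chosen with earlier results of these data known. Their counts are therefore no independent support for the classes. Of these 13 fell and 1 rose (52.0% lower, beside 12.8% lower and 15.498% higher of all tested genes), with a median log2 ratio of -1.0. Slc7a11, the cystine importer, fell 10.8-fold, with -4.79 at E14.5 and -2.07 at E15.5 (mean -3.43 ± 1.92, SD, n = 2 arrays, adjusted p = 0.0150). Its RTOC signals were dim, 72 at E14.5 and 74 at E15.5, so the size of this ratio is uncertain. Nupr1, a stress-induced chromatin protein, gave -1.27 at E14.5 and -3.13 at E15.5 (mean -2.20 ± 1.32, SD, n = 2 arrays, adjusted p = 0.0226). Slc7a5, a leucine importer, gave -2.19 (adjusted p = 0.00501) and Mthfd2, a mitochondrial folate enzyme, -2.06 (adjusted p = 0.00563). Cth, the cystathionine gamma-lyase that makes cysteine, rose by 2.58 ± 0.16 (SD, n = 2 arrays, adjusted p = 0.00279), a 5.98-fold higher signal in RTOC.

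Of the 22 tested ER unfolded protein response genes, 3 fell and 0 rose (13.6% lower, beside the 12.8% of all tested genes), so the share that passed was near the background. By the brightest probe 18 of the 22 genes were lower on both arrays, beside 39.5% of all tested genes. The 1 gene higher on both was Xbp1, beside 40.1% of all. The median log2 ratio was -0.50, with -0.66 at E14.5 and -0.39 at E15.5. No gene of the class reached 2-fold in either direction on both arrays, beside 9.04% of all tested genes lower and 11.5% higher. With normexp and median centring the median was -0.26 and 0 genes passed, and with the deposited log ratios 6 passed.

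**Figure D2:**
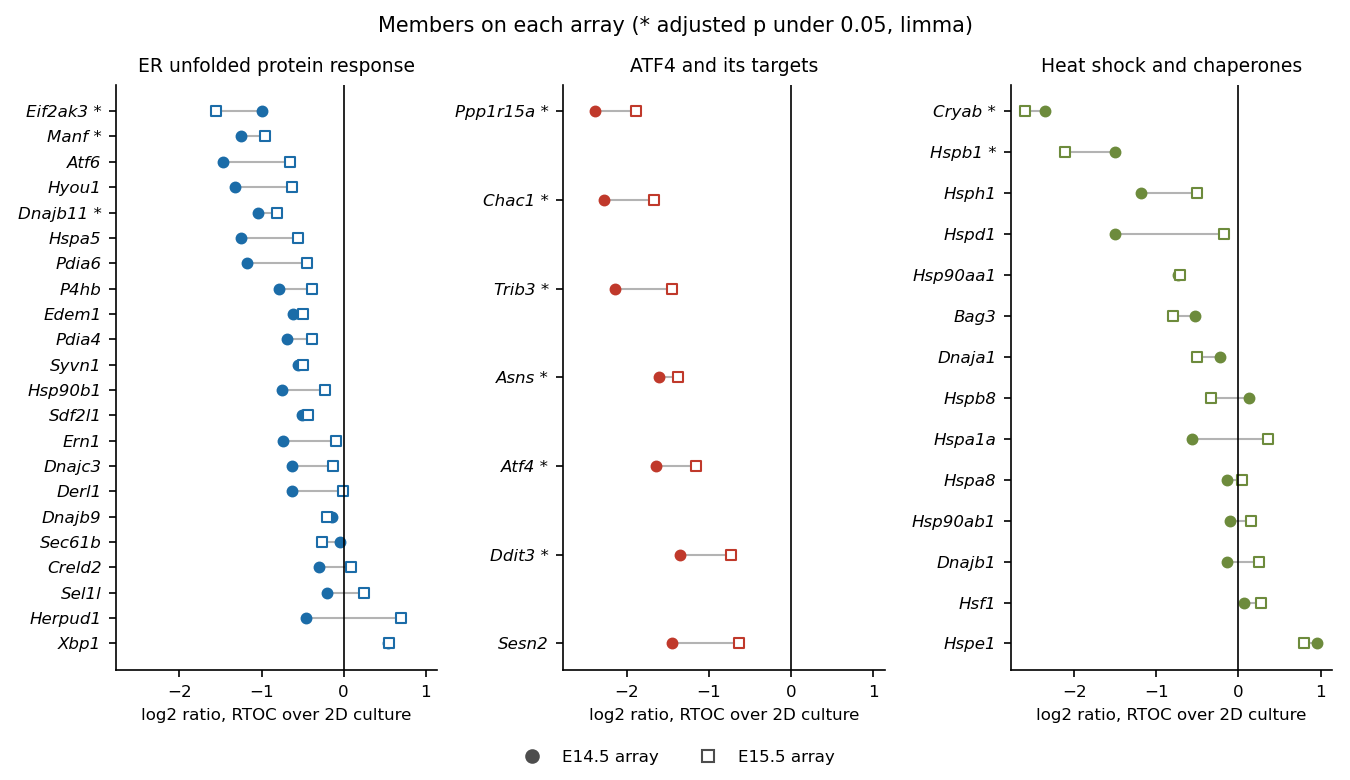
Log2 ratio of RTOC over 2D culture for the 43 tested genes in their 3 classes, with filled circles for the E14.5 array, open squares for the E15.5 array and an asterisk for an adjusted p under 0.05 (limma). Each gene is shown by its brightest probe. The 7 ATF4 genes all lie left of 0 on both arrays, most ER genes lie between 0 and -1.5, and the heat shock genes spread from -2.60 to 0.96.

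Among the sensors, Eif2ak3 (PERK) fell. Its signal was 1362 in 2D culture and 684 in RTOC at E14.5, and 2629 and 894 at E15.5. Both RTOC signals lay below both 2D signals, and the mean log2 ratio was -1.28 ± 0.40 (SD, n = 2 arrays, SE 0.28, adjusted p = 0.0241). After normexp and loess the ratio of Eif2ak3 was -0.85 and did not pass. Atf6 gave -1.47 at E14.5 and -0.65 at E15.5, with a mean of -1.06 ± 0.58 (SD, n = 2 arrays, adjusted p = 0.0507), and its other probe gave -1.16 (adjusted p = 0.0601). Ern1 (IRE1) was dim, with signals from 175 to 300, and gave -0.41 ± 0.46 (SD, n = 2 arrays, adjusted p = 0.316). Xbp1, the substrate of IRE1, gave 0.54 and 0.55 on the arrays (mean 0.54 ± 0.01, SD, n = 2 arrays, adjusted p = 0.154). The probe of Xbp1 was not checked against its splice forms, so the value is for the transcripts it binds.

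Of the ER chaperones and their helpers in the class, Manf and Dnajb11 fell. Manf, a secreted neurotrophic factor that binds the ER chaperone BiP, had a signal of 19212 in 2D culture and 8102 in RTOC at E14.5, and of 15259 and 7833 at E15.5 (mean log2 ratio -1.10 ± 0.20, SD, n = 2 arrays, SE 0.26, adjusted p = 0.0292). Dnajb11, a co-chaperone of BiP, had a signal of 16444 in 2D culture and 8004 in RTOC at E14.5, and of 13289 and 7551 at E15.5 (-0.93 ± 0.16, SD, n = 2 arrays, SE 0.25, adjusted p = 0.0454). For both genes the cultures did not overlap, a description with no share of all tested genes beside it. Hspa5, which encodes BiP itself, had a signal of 64286 in 2D culture and 26979 in RTOC at E14.5, and of 40081 and 27253 at E15.5. The RTOC signals of Hspa5 were nearly equal, and the arrays differed in their 2D signal, giving log2 ratios of -1.25 and -0.56 (mean -0.90 ± 0.49, SD, n = 2 arrays, adjusted p = 0.0682). Hyou1, a nucleotide exchange factor of BiP, showed the same order of arrays, with -1.33 and -0.63 (mean -0.98 ± 0.50, SD, n = 2 arrays, adjusted p = 0.0560). Hsp90b1, the ER form of HSP90, gave -0.48 ± 0.37 (SD, n = 2 arrays, adjusted p = 0.231). Its other probe gave -0.25 at E14.5 and 0.05 at E15.5 (mean -0.10, adjusted p = 0.798).

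The other BiP partners lay nearer to 0. Sdf2l1, part of a complex that protects folding clients, gave -0.47, Dnajc3 -0.38, Dnajb9 -0.17 and Creld2, a secreted ER stress protein, -0.10, with adjusted p-values from 0.21 to 0.795. The 4 probes of Dnajc3 ran from -0.68 to -0.22 and the 3 of Dnajb9 from -0.69 to -0.17, none past the threshold. Creld2 had opposite signs on the arrays, -0.29 and 0.09.

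The protein disulfide isomerases of the class, which form and rearrange disulfide bonds, were lower on both arrays without passing, by the brightest probe. Isomerases outside the class did pass, among them Pdia5, given with the wider ER list below. P4hb gave -0.59 ± 0.28, Pdia4 -0.54 ± 0.21 and Pdia6 -0.81 ± 0.52 (SD, n = 2 arrays), with adjusted p-values of 0.148, 0.170 and 0.0921. For Pdia6 the probes differed. A dimmer probe gave -1.28 and passed (adjusted p = 0.0210), while one named through its symbol gave 0.21 (adjusted p = 0.566).

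The genes of ER-associated degradation, which return misfolded proteins to the cytosol for the proteasome, showed no call on their brightest probes. Edem1, a lectin-like protein that marks misfolded glycoproteins, gave -0.56 ± 0.09 (SD, n = 2 arrays, adjusted p = 0.148), while its 2 other probes passed with -0.94 (adjusted p = 0.0428) and -1.35 (adjusted p = 0.0168), or -0.70 and -0.35 after normexp and loess. Syvn1, the ubiquitin ligase HRD1, gave -0.53 ± 0.05 (SD, n = 2 arrays, adjusted p = 0.166). Its partner Sel1l gave 0.02, with -0.20 and 0.24 on the arrays, but a second probe gave -0.98 and passed (adjusted p = 0.0465), or -0.27 after normexp and loess. Derl1, a channel protein of this pathway, gave -0.32 with its 4 probes between -0.33 and 0.56. Sec61b, a subunit of the protein import channel, gave -0.15 ± 0.15 (SD, n = 2 arrays, adjusted p = 0.677). Herpud1, a degradation adaptor, had the largest difference between the arrays in the class, with -0.46 at E14.5 and 0.70 at E15.5 (mean 0.12 ± 0.82, SD, n = 2 arrays, adjusted p = 0.815).

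Among tested ER genes with a promoter entry, the median ratios with and without an ERSE were close. Those with the element had a median log2 ratio of -0.50 and those with a promoter but no match -0.44. Manf (-1.10), Atf6 (-1.06), Hyou1 (-0.98) and Derl1 (-0.32) had no promoter entry and are in neither median. Derl3 held an ERSE but was not tested. The composite element of ATF4 was held by Chac1, Trib3 and Asns, with ratios from -1.97 to -1.49, and also by Herpud1, at 0.12. Both are descriptions of few genes.

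Outside the 45, 29 further ER genes were all tested, of which 6 fell and 2 rose (20.7% lower, beside 12.8% lower and 15.498% higher of all tested genes), with a median log2 ratio of -0.39. Ero1a and Ero1b encode the oxidases that recharge protein disulfide isomerases, and they moved in opposite directions. Ero1a fell 5.42-fold, with -2.40 at E14.5 and -2.47 at E15.5 (mean -2.44 ± 0.05, SD, n = 2 arrays, adjusted p = 0.00301). Ero1b rose 4.02-fold, with 2.17 and 1.85 (mean 2.01 ± 0.23, SD, n = 2 arrays, adjusted p = 0.00535). The 2D signals of Ero1b were dim, 186 at E14.5 and 320 at E15.5, so the size of this ratio is uncertain. Pdia5, a further disulfide isomerase, gave -1.79 (adjusted p = 0.00681), Mbtps2, a Golgi protease that cuts ATF6, -1.63 (adjusted p = 0.00897), and Calr, the lectin chaperone calreticulin, -1.04 (adjusted p = 0.0329). Mbtps2 was dim, with signals of 337 in 2D culture and 115 in RTOC at E14.5, and 140 and 43 at E15.5. The size of its ratio is therefore uncertain.

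**Figure D3:**
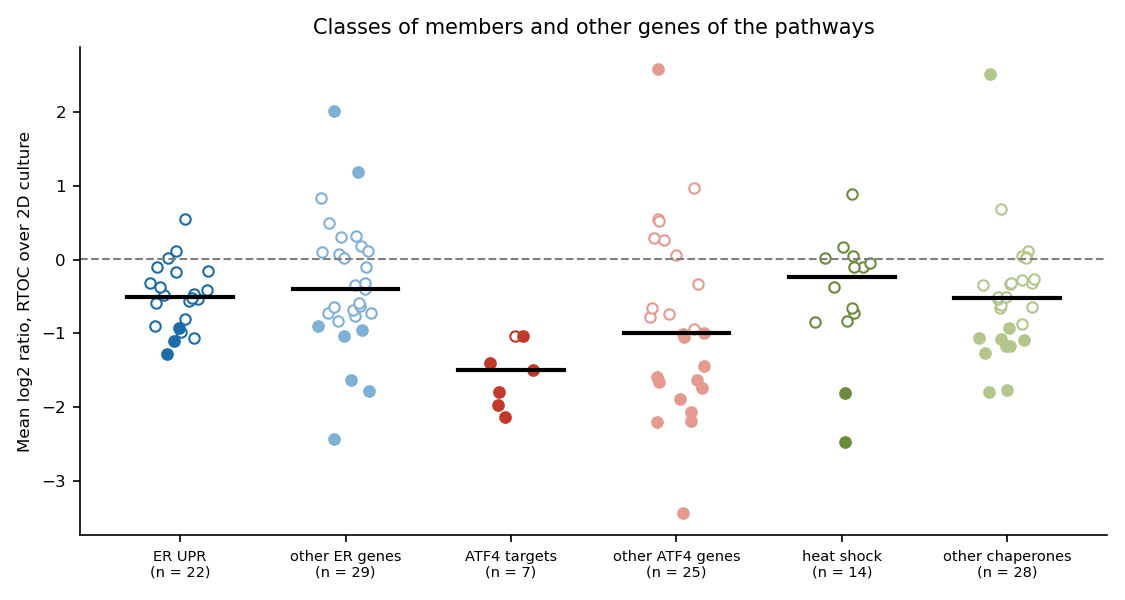
Mean log2 ratio of RTOC over 2D culture for each tested gene of the 3 classes and of the 3 wider lists (points, filled where the adjusted p was under 0.05), with bars at each median and a dashed line at the median of all tested genes. The ATF4 class lies lowest, at a median of -1.49, and the wider ATF4 list at -1.0, while the other 4 medians lie between -0.53 and -0.24.

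The heat shock and chaperone genes were mixed in direction. Of the 14 tested, 2 fell and 0 rose (14.3% lower, beside 12.8% lower and 15.498% higher of all tested genes). By the brightest probe 7 were lower on both arrays, beside 39.5% of all tested genes. Higher on both were 2, Hspe1 and Hsf1, beside 40.1% of all. For Hsf1, and for Dnaja1, which is counted as lower, the direction depended on the probe, as given below. The median log2 ratio of the class was -0.24. This median lay at 0.02 with normexp and median centring. The 2 genes that fell are both small heat shock proteins.

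Cryab encodes αB-crystallin, a small heat shock protein abundant in muscle and lens. Its signal was 5422 in 2D culture and 1055 in RTOC at E14.5, and 7311 and 1210 at E15.5. The cultures stood far apart, and the ratio averaged -2.48 ± 0.17 (SD, n = 2 arrays, SE 0.25, adjusted p = 0.00301), a 5.57-fold lower signal in RTOC and the lowest of the 43 genes, and its second probe gave -1.84 (adjusted p = 0.00665), which became -0.66 after normexp and loess. Hspb1 encodes HSP27 (HSP25 in the mouse), which protects actin filaments. Its signal was 14027 in 2D culture and 4934 in RTOC at E14.5, and 34237 and 7914 at E15.5. Its cultures did not overlap either (-1.81 ± 0.43, SD, n = 2 arrays, SE 0.28, adjusted p = 0.00906). Hspb8, a further small heat shock protein, gave 0.13 and -0.34 (mean -0.11 ± 0.33, SD, n = 2 arrays, adjusted p = 0.790), and Bag3, its co-chaperone, gave -0.66 ± 0.19 (SD, n = 2 arrays, adjusted p = 0.107) with a second probe at -0.94 that passed (adjusted p = 0.0438), or -0.24 after normexp and loess.

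Markers of smooth muscle moved in the same direction as Cryab and Hspb1. The summed signal of the 4 markers was 589000 and 503000 in 2D culture and 61100 and 37400 in RTOC, each at E14.5 and E15.5. Tagln fell 20.8-fold (adjusted p = 0.00155), Cnn1 16.2-fold (adjusted p = 0.00155) and Acta2 8.35-fold (adjusted p = 0.00233), all genes of the contractile apparatus, whereas Myh11, its smooth muscle myosin, gave -0.62 and 0.95 on the arrays. The part of smooth muscle cells in the values of Cryab and Hspb1 was not tested.

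Hspd1 and Hspe1, the head-to-head pair whose shared stretch is printed above, gave ratios of opposite sign. The signal of Hspd1 was 94860 in 2D culture and 33506 in RTOC at E14.5, and 53226 and 47257 at E15.5, and that of Hspe1 was 12631 and 24608 at E14.5, and 9915 and 17311 at E15.5. Both RTOC signals of Hspe1 exceeded both 2D signals, and both RTOC signals of Hspd1 lay below both 2D signals, narrowly at E15.5. The log2 ratio of Hspe1 averaged 0.88 ± 0.11 (SD, n = 2 arrays, SE 0.25, adjusted p = 0.0503) and that of Hspd1 -0.84 ± 0.94 (SD, n = 2 arrays, SE 0.38, adjusted p = 0.149). The second probe of Hspd1 gave -0.99 (adjusted p = 0.0591), and Hspe1 had 1 probe. Neither gene passed, and the difference between them was not tested.

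In the heat shock class, the genes of the cytosolic HSP70 and HSP90 machinery showed no call on their brightest probes. Genes of this machinery outside the class did fall, among them Hspa2 and Dnajb4, given with the wider chaperone list below. Hsp90aa1, the inducible HSP90, gave -0.74 and -0.71 on the arrays (mean -0.72 ± 0.02, SD, n = 2 arrays, adjusted p = 0.0813), and the constitutive Hsp90ab1 gave 0.03 ± 0.18 (SD, n = 2 arrays, adjusted p = 0.944). With normexp and median centring Hsp90aa1 was at -0.0277 and Hsp90ab1 at 0.72, so both values depended on the scaling. Hsph1, an HSP110 exchange factor, gave -1.19 and -0.50 (mean -0.84 ± 0.48, SD, n = 2 arrays, adjusted p = 0.0801). The constitutive HSP70 gene Hspa8 gave -0.05 ± 0.13 (SD, n = 2 arrays, adjusted p = 0.904) and the HSP40 gene Dnajb1 0.05 ± 0.28 (SD, n = 2 arrays, adjusted p = 0.895), with a second Dnajb1 probe at -0.74 and -0.62 (mean -0.68, adjusted p = 0.0949). Hsf1, the transcription factor of this system, gave 0.17 ± 0.15 (SD, n = 2 arrays, adjusted p = 0.635) on its brightest probe and -0.31 and -0.61 on its others, none past the threshold. The brightest probe was named through its symbol and had signals from 62008 to 83730. The others, named through a RefSeq accession, had signals from 277 to 2285 and were lower on both arrays. No direction is given for Hsf1.

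Hspa1a, the stress-inducible HSP70, gave -0.57 at E14.5 and 0.36 at E15.5 with its brightest of 4 probes (mean -0.10 ± 0.66, SD, n = 2 arrays, adjusted p = 0.829). The next brightest, which shares 30 bases with it, gave -0.24. The other two gave -0.69 (adjusted p = 0.101) and -1.22 (adjusted p = 0.0215), the latter from the dimmest probe, at -0.34 after normexp and loess. Dnaja1, a further HSP40 gene, had a brightest probe at -0.37 ± 0.20 (SD, n = 2 arrays, adjusted p = 0.322), while its 2 other probes gave 0.86 and 0.84 (adjusted p = 0.0832 and 0.0869), so no direction is given for either gene.

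**Figure D4:**
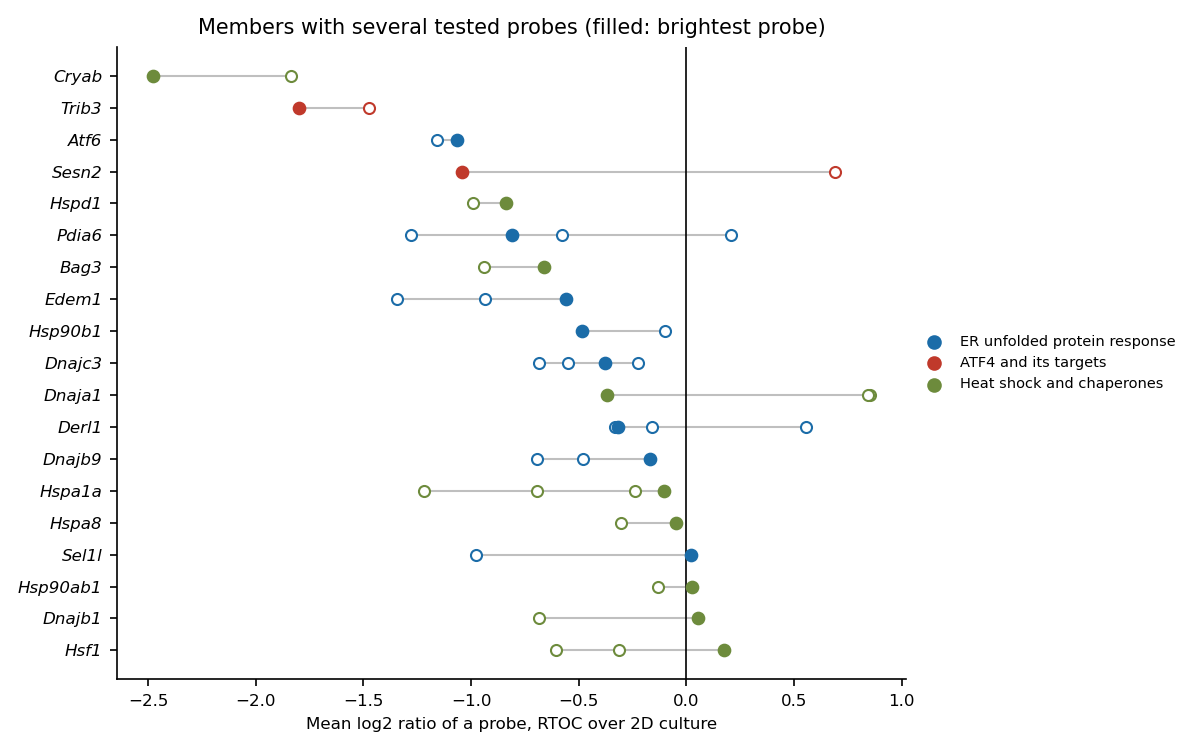
Mean log2 ratio (RTOC over 2D) of every tested probe for the 19 genes with more than 1 tested probe, filled for the brightest probe and open for the others, coloured by class. In 8 genes the probes lie on both sides of 0, with the widest span in Sesn2 (-1.04 to 0.69), whereas both probes of Cryab, Trib3, Atf6 and Hspd1 lie well below 0.

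A list of 31 other cytosolic and mitochondrial chaperone genes had 28 tested, of which 9 fell and 1 rose (32.1% lower, beside 12.8% lower and 15.498% higher of all tested genes), with a median log2 ratio of -0.53. The 9 became 0 with normexp and median centring and 2 with no replicate block. Hspa2, an HSP70 best known from the testis, gave -1.0 and -2.60 (mean -1.80 ± 1.13, SD, n = 2 arrays, adjusted p = 0.0301). Serpinh1, the collagen chaperone HSP47, gave -2.39 at E14.5 and -1.14 at E15.5 (mean -1.76 ± 0.89, SD, n = 2 arrays, adjusted p = 0.0211). Dnajb4, an HSP40, gave -1.83 and -0.69 (mean -1.26 ± 0.80, SD, n = 2 arrays, adjusted p = 0.0458), and Hspa9, the mitochondrial HSP70, -1.61 and -0.74 (mean -1.17 ± 0.62, SD, n = 2 arrays, adjusted p = 0.0415). Cct3, a subunit of the chaperonin TRiC, gave -1.17 (adjusted p = 0.0235). Hspa12a, the gene of this list that rose, was well above background in 2 of 4 channels and is named after its value was seen.

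The E14.5 ratio was below the E15.5 ratio in 34 of the 43 genes, in all 7 ATF4 genes, 19 of 22 ER genes and 8 of 14 heat shock genes, and in 6961 of all 13505 tested genes. Eif2ak3, Cryab and Hspb1 ran the other way, with the lower ratio on the E15.5 array. Opposite signs were seen in 8 genes, in none of them with both ratios beyond 0.5 on the log2 scale. With 1 array per stage the difference has no replicate check.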

How the data were processed

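RNA of 2 two-colour Agilent mouse arrays was used. The authors ran Agilent Feature Extraction (version 11.5.1.1 in the submitters' processing notes), and the deposited scanner files give for each spot an intensity before and after background subtraction and dye normalization, and a log10 ratio. The deposited series values are that log10 ratio (largest difference 5e-10) and are not quantile normalized between arrays. The methods name quantile normalization over all arrays and a t-test for the study. The labels name TRIzol for RNA extraction, the methods a column kit.

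From the deposited processed intensities, control and outlier spots (5 on the E14.5 and 1 on the E15.5 array) were removed, the signals of all 4 channels were brought to one distribution by quantile normalization, and the log2 ratio was averaged per probe. Probes with at least 1 channel well above background on each array (23685 of 41174) were tested against 0 with limma 3.58.1 in R 4.3.3 (intercept and eBayes, two-sided, Benjamini-Hochberg over all tested probes, threshold 0.05, residual degrees of freedom 1, prior 4.53). Each array holds both cultures, so its ratio keeps the pairing. The brightest tested probe stood for a gene. Symbols came from the files or, through accession and older symbol, from RefSeq (GRCm38.p6). The 4 genes under an older name in the files were Hsph1, Manf, Ppp1r15a and Sel1l. The steps were tested on simulated data.

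All genes of the 3 classes are accounted for. Genes of the wider lists and markers are named where they passed, were well above background in all 4 channels and were among the 5 largest of their list. Hspa12a, Myh11, Cct6a and Cct5 are exceptions, named after their values were seen. Genes and lists were chosen with earlier results of these data known. Well above background were from 53.1% to 60.9% of probes per channel, and the number of arrays limits the precision. Other background corrections, filters, variance models, probe choices and single arrays were tried. Protein sequences were not used here.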

Additional observations from a re-analysis of the deposited data

How the results depend on the processing

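With 2 arrays, calls lean on the variance that limma borrows across probes. The count of ATF4 genes that fell (6) was 2 after normexp and median centring, 0 without a filter on dim probes and 0 with the methods' t-test. The count of ER unfolded protein response genes that fell (3) was 0 in those 3 settings, 1 with no replicate block, and 6 with the deposited log ratios, the series values, all 4 channels well above background, or trend and robust fitting, Hspa5, Hyou1 and Atf6 being added. That of heat shock genes (2) was 0 without the filter and with the t-test and 1 with no replicate block. Members that rose (0) were 1, Hspe1, with normexp and loess (with or without Aquantile), median centring, all 4 channels well above background, or trend and robust fitting. The wider lists (6 ER, 13 ATF4 and 9 chaperone genes lower) had 2, 6 and 0 after median centring, 1, 7 and 2 with no replicate block, and 0 each without the filter and with the t-test. Genes of these lists that rose (4) were 2 with all 4 channels well above background and with no replicate block, and 0 without the filter and with the t-test. Over all genes limma called 0 without the filter (5641 at an unadjusted p under 0.05), and the t-test called 3 (2052).

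After median centring 3 members were at least 2-fold lower and 1 higher on both arrays, and lower calls made up 24% of all calls instead of 45.1%. The medians were then -0.26 (ER), -1.14 (ATF4) and 0.0248 (heat shock). The heat shock median was -0.39 over all probes of a gene and -0.34 with RefSeq accession probes, an alternative chosen after seeing the data. With each array left out, medians ranged from -0.66 to -0.39 (ER), -1.64 to -1.37 (ATF4) and -0.38 to -0.25 (heat shock).

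Signs turned for Creld2 (0.0363), Dnajb9 (0.0441), Hsp90b1 (0.0539), Hspa1a (0.0773), Hspb8 (0.0867), Hspa8 (0.36) and Sec61b (0.41) after median centring, for Hspa8 (0.0440), Sec61b (0.0470) and Dnajb1 (-0.0019) with normexp and loess, also with Aquantile, for Dnajb1 (-0.0055) with the deposited values, for Dnaja1 (0.84), Dnajb1 (-0.32), Hsf1 (-0.31), Hsp90ab1 (-0.0507) and Sel1l (-0.48) with the median over probes, and for Hsf1 (-0.31) and Sesn2 (0.69) with accession probes. The causes were not tested.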

Other observations

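TRiC, the ring chaperonin that folds actin and tubulin, has 8 subunit genes, all of them tested. Of these 2 fell and 0 rose, beside 12.8% and 15.498% of all tested genes. Cct3 gave -1.17 ± 0.14 (SD, n = 2 arrays, adjusted p = 0.0235, limma) and Cct6a, named after its value was seen, -1.10 ± 0.35 (SD, n = 2 arrays, adjusted p = 0.0347). Cct5, likewise, gave 0.68 (adjusted p = 0.0986). Differences between subunits were not tested.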
